A study of Mus musculus with 12 samples.

Results

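A set of 10 receptor tyrosine kinases outside the EGFR and PDGFR families was followed across sorted cells of a mouse glioblastoma (GBM) model. They are Ntrk2, Ntrk3, Fgfr1, Fgfr2, Fgfr3, Ddr1, Igf1r, Insr, Met and Mertk. Members were matched by gene symbol from a list chosen with earlier results of these data known. All 10 were among the 18180 genes of the expression table. The tumors carried, among other alleles, conditional Cre/Lox overexpression of human EGFR, loss of Cdkn2a and a luciferase reporter, and were started by stereotactic intracranial injection of a Cre lentivirus into mice of a mixed background (C57Bl/6J, Balb/cJ, 129S4 and FVBN/J by the labels, with SJL added in the study's methods). All 12 libraries share these alleles, so no library of normal brain or of another genotype enters any comparison. EGFR+ cells from 3 end-stage tumors (T3, T4 and T5) were stained for PDGFR or for Galectin-1 and sorted into PDGFRA+, PDGFRA-, GAL1+ and GAL1- populations, 1 library of each per tumor, so n = 3 throughout. The PDGFRA and GAL1 sorts were separate stains, and populations from different sorts can hold the same kind of cell. The study describes the sorted cells as CD45-, while its methods for this sort name antibodies to EGFR and to PDGFR or Galectin-1 only. Its methods describe adult mice of both sexes, and the labels give no age for the mice of these tumors.

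A receptor tyrosine kinase binds its ligand outside the cell, acts as a pair of receptor chains, and phosphorylates tyrosines that recruit adaptor proteins. These in turn feed the RAS-MAPK, PI3K-AKT and phospholipase C gamma routes. Ntrk2 (TrkB) and Ntrk3 (TrkC) are the receptors of the neurotrophins BDNF and NT-3, Fgfr1 to Fgfr3 those of fibroblast growth factors, Igf1r and Insr those of the insulin-like growth factors and insulin, and Met that of hepatocyte growth factor. Ddr1 is a collagen receptor found in the oligodendrocyte lineage of the brain. Mertk belongs to the TAM family with Axl and Tyro3, binds Gas6 and protein S, and is best known for the uptake of dying cells by macrophages and microglia.

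For 8 of the 10 receptors the mean level was lowest in GAL1+ cells and highest in GAL1- cells, Mertk ran the other way, and Met followed the tumor rather than the sort. The same ranking of population means (GAL1- above PDGFRA+ above PDGFRA- above GAL1+) held for the 8 receptors Ntrk2, Ntrk3, Fgfr1, Fgfr2, Fgfr3, Ddr1, Igf1r and Insr. Its inner steps are weak, as none of the 8 was called between GAL1- and PDGFRA+ cells or between PDGFRA+ and PDGFRA- cells. Single tumors depart from it (Igf1r in T4 read 7.02 log2 CPM in PDGFRA- and 6.84 in PDGFRA+ cells). The share of all genes with this ranking was not counted. Mertk had the opposite ranking of means, with PDGFRA+ and PDGFRA- cells apart by only -0.19 ± 0.34 (limma adjusted p = 0.85). Between GAL1+ and GAL1- cells 9 of the 10 receptors passed the test (limma with tumor in the model and p-values adjusted by Benjamini and Hochberg over every gene of the table, threshold 0.05), 8 of them lower and Mertk higher. Of all genes tested 58.2% passed, 28.9% as higher and 29.3% as lower. The 9 also had groups whose 3 libraries did not overlap, as did 60.6% of all genes. With so wide a difference between these populations, neither a call nor groups that do not overlap set a receptor apart from other genes.

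**Figure D1:**
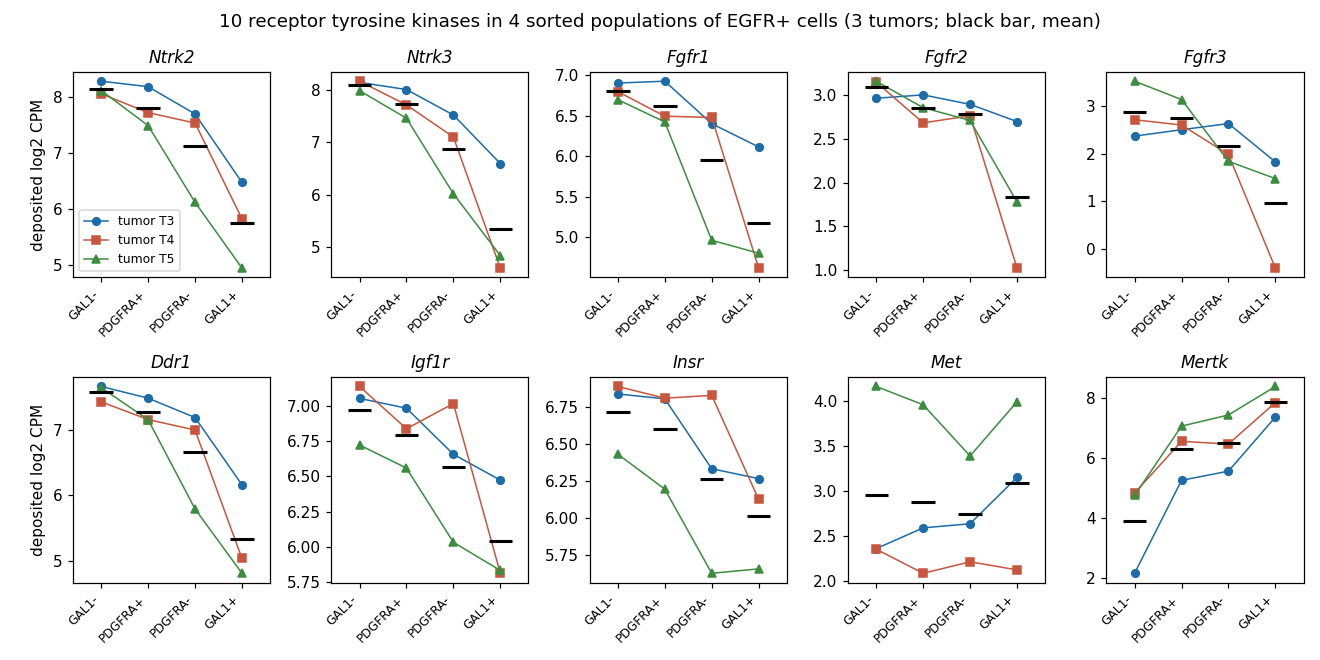
Deposited log2 CPM of the 10 receptors (vertical axis, a separate scale in each panel) in the 4 sorted populations (horizontal axis), with 1 line per tumor and a black bar for the mean of 3 libraries. Ntrk2, Ntrk3 and Ddr1 step down from GAL1- to GAL1+ in every tumor, Mertk climbs in every tumor between these ends, and the T5 line of Met lies above the T3 and T4 lines in all 4 populations.

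The libraries held between 9851175 and 24117541 recovered reads, with the GAL1- libraries the deepest (21728280 to 24117541). Sorting markers followed the GAL1 sort: Lgals1, which encodes Galectin-1, was higher by 1.29 ± 0.22 (log2 difference ± SE) in GAL1+ than in GAL1- cells (limma adjusted p = 0.00097). Pdgfra was higher by 1.60 ± 0.41 in PDGFRA+ than in PDGFRA- cells, which missed the threshold (limma adjusted p = 0.25). The summed level of 12 microglia and macrophage markers was 6196 to 8760 CPM in GAL1+ libraries, 1285 to 3688 in PDGFRA+, 1052 to 5408 in PDGFRA- and 82.7 to 291 in GAL1- libraries. Over 12 pan-leukocyte markers, Ptprc (CD45) among them, the sums were 3187 to 4468, 711 to 1691, 757 to 3434 and 87.2 to 232 CPM in the same order, although the cells are described as CD45-. The summed level of 10 oligodendrocyte progenitor markers ran the other way, at 740 to 2212 CPM in GAL1+, 4868 to 7033 in PDGFRA+, 1629 to 5022 in PDGFRA- and 6088 to 7353 in GAL1- libraries. Pdgfra, which encodes the antigen of the PDGFRA sort, is among these 10. Its means were 10.30 log2 CPM in PDGFRA+ and 8.70 in PDGFRA- cells, so the step between these sums is partly set by the sort. The sum of 9 astrocyte markers was 228 to 378 CPM in GAL1+ and 784 to 883 in GAL1- libraries. Of these 9, 5 were called lower in GAL1+ cells and 4 were not called, where 29.3% of all genes were called lower. Gja1, not called, had a higher mean in GAL1+ (5.61 log2 CPM) than in GAL1- cells (4.49). Neuron markers (8 genes, 5 called lower and 3 not called) summed to 125 to 255 CPM in GAL1+ and 692 to 751 in GAL1- libraries. Map2 was the highest of the 8, with means of 7.20 log2 CPM in GAL1+ and 9.22 in GAL1- cells. Rbfox3 and Slc17a7, scarce and not called, had higher means in GAL1+ (-0.92 and -0.69) than in GAL1- cells (-1.05 and -1.22). Mature oligodendrocyte markers (10 genes) summed to 214 to 374 CPM in GAL1+ and 377 to 488 in PDGFRA+ libraries. Their sums were 917 to 1277 in PDGFRA- libraries, the highest, and 510 to 793 in GAL1- libraries. Endothelial markers (10 genes) summed to 316 to 395 CPM in GAL1+ and 42.1 to 90.7 in GAL1- libraries, and pericyte markers (7 genes) to 235 to 317 and 24.3 to 45.7. No marker of these lists was at or under 3 reads in all libraries of a population. The part of these cell types in the receptor differences below was not tested, and in sorted bulk samples fewer cells of a type and less RNA per cell cannot be told apart. The PDGFRA- library of tumor T5 stood apart from the T3 and T4 libraries of its group for several receptors, and values that rest on it are marked.

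The 2 neurotrophin receptors showed the widest falls. Ntrk3 read 8.15, 8.17 and 7.99 log2 CPM in the GAL1- cells of T3, T4 and T5, and 6.59, 4.59 and 4.83 in the GAL1+ cells of the same tumors. In PDGFRA+ cells it read 8.01, 7.72 and 7.46, and in PDGFRA- cells 7.52, 7.10 and 6.02. The GAL1+ and GAL1- libraries are well apart, and the PDGFRA- library of T5 sits nearer to the GAL1+ libraries than those of T3 and T4 do. The GAL1+ mean was 2.76 ± 0.36 below the GAL1- mean on the log2 scale, a 6.80-fold difference (limma adjusted p = 0.00017), lower in 3 of 3 tumors. PDGFRA+ exceeded GAL1+ cells by 2.39 ± 0.36 (5.25-fold, limma adjusted p = 0.0019).

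Ntrk2 gave 8.28, 8.06 and 8.11 log2 CPM in GAL1- cells against 6.47, 5.82 and 4.94 in GAL1+ cells (T3, T4 and T5). PDGFRA+ cells gave 8.18, 7.72 and 7.49, and PDGFRA- cells 7.70, 7.53 and 6.12. PDGFRA+ overlaps GAL1-, while every GAL1+ library lies below every PDGFRA+ and GAL1- library. The fall in GAL1+ against GAL1- cells was 2.40 ± 0.27 on the log2 scale (5.29-fold, limma adjusted p = 9.5e-05), and PDGFRA+ exceeded GAL1+ cells by 2.05 ± 0.27 (4.14-fold, limma adjusted p = 0.0015). Ntrk2 was among the genes the study itself listed from its PDGFRA+ against GAL1+ comparison of these libraries, so its direction there is not independent evidence. Counts were made per gene over exons, and the kinase-carrying and truncated isoforms of Ntrk2 and Ntrk3 cannot be told apart in them.

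The collagen receptor Ddr1 moved with the neurotrophin receptors. It read 7.67, 7.44 and 7.65 log2 CPM in GAL1- cells, 7.49, 7.16 and 7.16 in PDGFRA+ cells, 7.20, 7.00 and 5.79 in PDGFRA- cells and 6.16, 5.03 and 4.81 in GAL1+ cells. The GAL1- and PDGFRA+ libraries overlap, and the T5 library is the low one among PDGFRA- cells. Ddr1 fell by 2.25 ± 0.29 on the log2 scale in GAL1+ against GAL1- cells (4.76-fold, limma adjusted p = 0.00017). It was 1.94 ± 0.29 higher in PDGFRA+ than in GAL1+ cells (3.83-fold, limma adjusted p = 0.0019).

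The upstream sequences of Mertk and Ntrk2 are shown as the highest and lowest GAL1+ against GAL1- difference among receptors with a promoter entry. The Ddr1 and Fgfr3 windows are shown only because they hold the letters CAGCTG, and other windows of these genes are left out. The share of printed windows with these letters therefore carries no information. RefSeq promoter entries (GRCm38.p6, a build other than the mm39 of the expression files) were found for 7 of the 10 receptors, and none was at hand for Insr, Fgfr1 and Ntrk3. Each run below is the 250 bases before a gene start, 5′ to 3′ on the strand of the gene, and capitals mark the E-box letters CAGCTG, a motif of basic helix-loop-helix factors.
Ntrk2, chr13:58806319-58806568, plus strand: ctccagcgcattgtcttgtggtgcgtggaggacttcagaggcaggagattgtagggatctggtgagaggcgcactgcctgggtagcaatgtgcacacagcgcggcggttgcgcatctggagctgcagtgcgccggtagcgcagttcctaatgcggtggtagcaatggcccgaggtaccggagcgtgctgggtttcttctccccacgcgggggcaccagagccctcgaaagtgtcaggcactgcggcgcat
Ddr1, chr17:35704600-35704849, minus strand: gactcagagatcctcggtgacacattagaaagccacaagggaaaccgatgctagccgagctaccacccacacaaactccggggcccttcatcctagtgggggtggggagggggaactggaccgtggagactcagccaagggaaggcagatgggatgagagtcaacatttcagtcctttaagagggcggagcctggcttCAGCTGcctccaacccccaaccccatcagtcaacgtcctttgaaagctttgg
Fgfr3, chr5:33721474-33721723, plus strand: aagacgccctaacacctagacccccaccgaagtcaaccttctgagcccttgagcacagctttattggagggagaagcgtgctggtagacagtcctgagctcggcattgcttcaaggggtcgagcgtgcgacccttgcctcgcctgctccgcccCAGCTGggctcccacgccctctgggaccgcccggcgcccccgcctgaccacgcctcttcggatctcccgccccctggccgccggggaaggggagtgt
Mertk, chr2:128698665-128698914, plus strand: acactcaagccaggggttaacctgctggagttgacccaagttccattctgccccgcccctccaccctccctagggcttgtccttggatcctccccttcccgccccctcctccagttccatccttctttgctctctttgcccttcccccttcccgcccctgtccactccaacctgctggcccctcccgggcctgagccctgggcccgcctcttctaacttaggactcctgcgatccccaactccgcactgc
CAGCTG, which reads the same on both strands, begins 52 bases before this Ddr1 start and 97 bases before this Fgfr3 start. It is in 2 of the 11 windows listed for the 7 receptors (Ddr1 has 4 starts and Fgfr3 has 2), and in 13.0% of all 32851 windows of this length. The PU-box letters GAGGAA, the core of a motif of myeloid ETS factors, searched on both strands, are in 1 of the 11 windows, the other Fgfr3 start, and in 23.3% of all windows. Neither set of letters is in the Mertk or Ntrk2 window. These are matches of letters only.

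The 3 fibroblast growth factor receptors shared the direction at very different levels. Fgfr1 read 6.90, 6.80 and 6.70 log2 CPM in GAL1- cells, 6.93, 6.49 and 6.42 in PDGFRA+ cells, 6.40, 6.48 and 4.96 in PDGFRA- cells and 6.11, 4.62 and 4.80 in GAL1+ cells. Its fall in GAL1+ against GAL1- cells was 1.62 ± 0.33 on the log2 scale (3.08-fold, limma adjusted p = 0.0024), with differences of -0.79 within T3, -2.18 within T4 and -1.90 within T5. PDGFRA+ exceeded GAL1+ cells by 1.44 ± 0.33 (2.71-fold, limma adjusted p = 0.0097).

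Fgfr3, a receptor of astrocytes and their precursors, was much scarcer. It read 2.37, 2.71 and 3.52 log2 CPM in GAL1- cells and 1.83, -0.40 and 1.48 in GAL1+ cells, with 2.50, 2.60 and 3.14 in PDGFRA+ cells and 2.63, 1.98 and 1.84 in PDGFRA- cells. The GAL1+ library of T4 rests on 9 recovered reads, against 60 and 34 in T3 and T5. The fall in GAL1+ against GAL1- cells was 1.90 ± 0.47 on the log2 scale (3.74-fold, limma adjusted p = 0.0068), and its adjusted p in limma was 0.052 without T4, where the difference was -1.29, and without T5, where it was -1.83. PDGFRA+ cells were higher than GAL1+ cells by 1.78 ± 0.47 (3.44-fold, limma adjusted p = 0.017), a call that was lost without T4 (1.17, limma adjusted p = 0.10) or T5 (1.84, limma adjusted p = 0.075).

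Fgfr2 was nearly flat over 9 of the 12 libraries. Its values were 2.97, 3.15 and 3.16 log2 CPM in GAL1- cells, 3.01, 2.68 and 2.86 in PDGFRA+ cells and 2.90, 2.77 and 2.71 in PDGFRA- cells. In GAL1+ cells they were 2.70, 1.02 and 1.78, so T3 lies within reach of the other populations while T4 and T5 lie below. The fall against GAL1- cells was 1.26 ± 0.30 on the log2 scale (2.40-fold, limma adjusted p = 0.0057) and lost its call without T4 (log2 difference -0.83, limma adjusted p = 0.055) or T5 (-1.20, limma adjusted p = 0.072). PDGFRA+ exceeded GAL1+ cells by 1.02 ± 0.30 (limma adjusted p = 0.027), with an adjusted p of 0.059 when tumor was left out of the model, 0.13 without T4 and 0.16 without T5.

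The insulin-like growth factor and insulin receptors changed least among the 8. Igf1r, the main receptor for IGF1 and IGF2, read 7.05, 7.14 and 6.72 log2 CPM in GAL1- cells, 6.98, 6.84 and 6.56 in PDGFRA+ cells, 6.66, 7.02 and 6.03 in PDGFRA- cells and 6.47, 5.81 and 5.83 in GAL1+ cells. Its GAL1+ mean was 0.93 ± 0.19 below the GAL1- mean on the log2 scale (1.91-fold, limma adjusted p = 0.0021). The excess in PDGFRA+ over GAL1+ cells was 0.76 ± 0.19 (1.69-fold, limma adjusted p = 0.013), and it missed the threshold without tumor in the model (limma adjusted p = 0.068), without T3 (0.073) and without T5 (0.062).

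Insr read 6.83, 6.89 and 6.43 log2 CPM in GAL1- cells, 6.80, 6.81 and 6.19 in PDGFRA+ cells, 6.33, 6.83 and 5.63 in PDGFRA- cells and 6.27, 6.13 and 5.66 in GAL1+ cells. T5 was the lowest tumor in all 4 populations. GAL1+ cells were 0.70 ± 0.15 below GAL1- cells (1.62-fold, limma adjusted p = 0.0030), a fall of 0.57 to 0.77 in each tumor. The excess in PDGFRA+ over GAL1+ cells was 0.58 ± 0.15 (limma adjusted p = 0.015). Without tumor in the model the adjusted p in limma rose to 0.076 and 0.18 for these comparisons, and without T3 it was 0.12 for the second.

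Mertk was the receptor that rose. GAL1+ cells read 7.35, 7.84 and 8.37 log2 CPM (163, 229 and 331 CPM) in T3, T4 and T5, and GAL1- cells read 2.16, 4.83 and 4.75 (4.47, 28.4 and 26.9 CPM). PDGFRA+ cells read 5.25, 6.55 and 7.05, and PDGFRA- cells 5.55, 6.46 and 7.42. The GAL1- library of T3 is the lowest of all 12, and the PDGFRA+ libraries lie between those of the GAL1 sort, as do the PDGFRA- libraries but for T5, which passes the lowest GAL1+ library. The mean rise in GAL1+ over GAL1- cells was 3.94 ± 0.34 on the log2 scale, or 15.3-fold (limma adjusted p = 4.0e-05), with differences of 5.19, 3.01 and 3.62 within T3, T4 and T5.

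Mertk also separated the PDGFRA sort from both GAL1 populations. It was the one receptor of the 10 that differed between PDGFRA+ and GAL1- cells, 2.37 ± 0.34 higher in PDGFRA+ (5.17-fold, limma adjusted p = 0.0029), in a comparison where 8.27% of all genes were called, 8.26% as higher. This call rests on tumor being in the model (limma adjusted p = 0.13 without it) and was missed without T3 (2.01, limma adjusted p = 0.081) or T5 (2.40, limma adjusted p = 0.051). PDGFRA- exceeded GAL1- cells by 2.57 ± 0.34 (5.92-fold, limma adjusted p = 0.0011, or 0.056 without tumor in the model). Against GAL1+ cells Mertk was lower by -1.57 ± 0.34 in PDGFRA+ cells (limma adjusted p = 0.0071, or 0.15 without tumor in the model) and by -1.37 ± 0.34 in PDGFRA- cells (limma adjusted p = 0.024, or 0.27 without it). The last call was also missed when any of the 3 tumors was left out (limma adjusted p = 0.062 to 0.10). The microglia and macrophage sums given above had the same high and low ends, GAL1+ above both PDGFRA populations above GAL1- cells. This was not particular to these markers. Over the libraries Mertk had Pearson r 0.935 with the microglia and macrophage sum, 0.947 with the pan-leukocyte sum and 0.915 with the neutrophil sum. For the pericyte, T and NK cell and endothelial sums r was 0.827, 0.781 and 0.765. The progenitor, mature oligodendrocyte, astrocyte and neuron sums gave negative values.

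**Figure D2:**
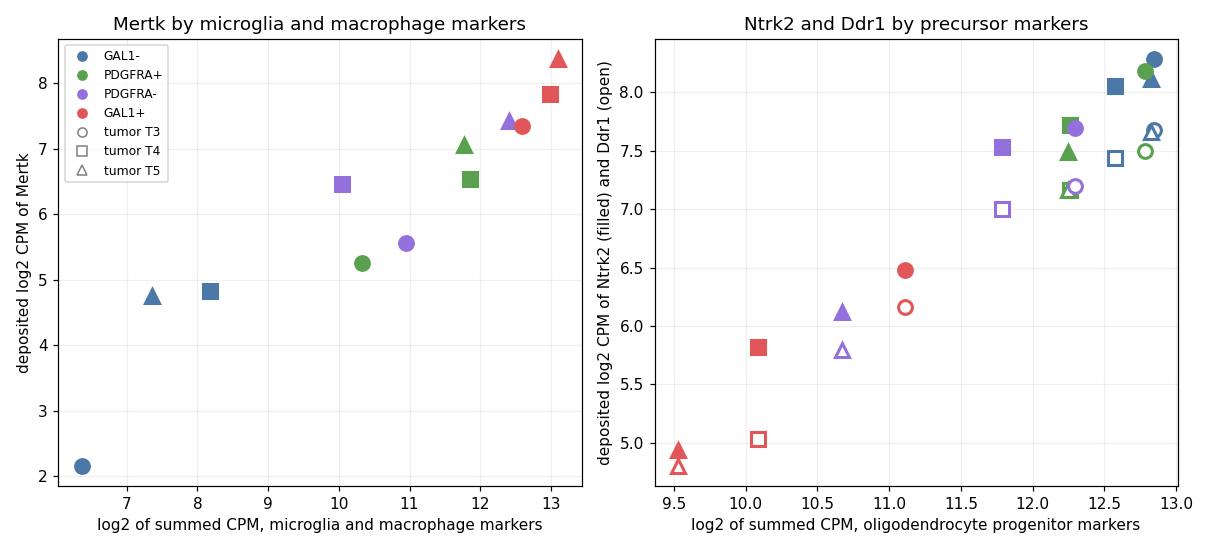
Left, deposited log2 CPM of Mertk against the log2 of the summed CPM of 12 microglia and macrophage markers. Right, log2 CPM of Ntrk2 (filled) and Ddr1 (open) against the log2 of the summed CPM of 10 oligodendrocyte progenitor markers, Pdgfra among them. Each point is 1 of 12 libraries, with color for the population and shape for the tumor. In the left panel the 3 GAL1+ libraries lie at the upper right and the 3 GAL1- libraries at the lower left. In the right panel the ends are exchanged, and the PDGFRA- library of T5 lies between the GAL1+ libraries of T4 and T3. In the right panel the relation is not particular to progenitor markers (Pearson r 0.99 for Ntrk2 and 0.99 for Ddr1). The astrocyte sum gave 0.96 and 0.94 and the neuron sum 0.99 and 0.97 for the same genes. With the mature oligodendrocyte sum r was only 0.435 and 0.427. In the left panel the relation is not particular to microglia and macrophage markers (r 0.935), as the pan-leukocyte sum gave 0.947.

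Met, the hepatocyte growth factor receptor, did not separate by sort. It read 2.36, 2.35 and 4.17 log2 CPM in GAL1- cells of T3, T4 and T5, 2.59, 2.08 and 3.96 in PDGFRA+ cells, 2.64, 2.21 and 3.39 in PDGFRA- cells and 3.15, 2.12 and 4.00 in GAL1+ cells. The 4 libraries of T5 (3.39 to 4.17) lie above the 8 libraries of T3 (2.36 to 3.15) and T4 (2.08 to 2.35). Tumor accounted for 89.3% of the sum of squares of Met over the 12 libraries and population for 2.77%, whereas the medians over all genes were 22.4% and 50.5%. For Mertk the shares were 21.8% for tumor and 73.7% for population, and for Insr 48.9% and 41.5%. The difference of Met between GAL1+ and GAL1- cells was 0.13 ± 0.23 (95% interval -0.39 to 0.66, limma adjusted p = 0.65), and none of the 6 comparisons called it. Its counts were low, from 43.4 recovered reads in the lowest library.

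Within the PDGFRA sort, which asks how surface PDGFRA splits the EGFR+ cells, no receptor was called, and neither was any of the 18180 genes (0% called by limma, with 2137 genes at an unadjusted p under 0.05). A total of 3 receptors had an unadjusted p under 0.05 in limma. They were Ntrk2 at 0.68 ± 0.27 (95% interval 0.07 to 1.29), Ntrk3 at 0.85 ± 0.36 (0.05 to 1.65) and Insr at 0.34 ± 0.15 (0.00 to 0.67), each a log2 excess in PDGFRA+ cells. By tumor (T3, T4, T5) the excess of Ntrk2 came to 0.49, 0.19 and 1.37 and that of Ddr1 to 0.30, 0.16 and 1.37, so the largest part lay in T5. All 10 receptors had overlapping groups here, and 6.94% of all genes did not.

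By population means PDGFRA- cells lay between PDGFRA+ and GAL1+ cells for the 8 receptors. Against GAL1+ cells 3 of them were called higher, Ntrk3 by 1.54 ± 0.36, Ntrk2 by 1.37 ± 0.27 and Ddr1 by 1.33 ± 0.29 (limma adjusted p = 0.020, 0.013 and 0.017), where 13.2% of all genes were called higher, 6.91% lower and 20.1% in either direction. The same 3 receptors were called lower than in GAL1- cells, Ntrk3 by -1.22 ± 0.36, Ntrk2 by -1.03 ± 0.27 and Ddr1 by -0.92 ± 0.29 (limma adjusted p = 0.037, 0.025 and 0.047), where 6.88% of all genes were called lower, 16.2% higher and 23.1% in either direction. Of 13 alternatives, 8 kept the call against GAL1- cells for Ntrk3, 8 for Ntrk2 and 6 for Ddr1. All 3 calls were lost without the PDGFRA- library of T5 (differences of -0.94, -0.73 and -0.58, limma adjusted p = 0.16, 0.11 and 0.20), without tumor T5 (-0.85, -0.55 and -0.45, limma adjusted p = 0.38, 0.11 and 0.37) and in a fit on the 6 libraries compared (limma adjusted p = 0.058, 0.11 and 0.13). That of Ntrk2 was also missed without T3 (limma adjusted p = 0.074), that of Ddr1 without T3 (0.083) or T4 (0.055), and those of Ntrk3 and Ddr1 in a fit without a mean-variance trend (0.060 and 0.074). Without tumor in the model neither set was called, with adjusted p in limma of 0.078 to 0.095 against GAL1+ cells and 0.16 to 0.17 against GAL1- cells. Against GAL1+ cells the calls also missed without T4 (limma adjusted p = 0.13 for Ntrk2, 0.18 for Ntrk3 and 0.17 for Ddr1), and those of Ntrk2 and Ddr1 without T3 (0.082 and 0.072).

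Between PDGFRA+ and GAL1- cells the other 9 receptors were not called, although Ntrk3, Ntrk2, Ddr1, Igf1r and Insr were lower in PDGFRA+ cells in 3 of 3 tumors. The largest of the 9 log2 differences was that of Ntrk3, -0.37 (95% interval -1.17 to 0.43), followed by Ntrk2 at -0.35 (-0.96 to 0.26) and Ddr1 at -0.31 (-0.96 to 0.34), all lower in PDGFRA+ cells. Fitted on the 6 libraries of these populations alone, Ntrk3 and Ddr1 passed (limma adjusted p = 0.034 and 0.045). In PDGFRA+ against GAL1+ cells 8 receptors were called higher, Mertk was called lower and Met was not called, where 38.0% of all genes were called, 20.9% higher and 17.0% lower. The PDGFRA+ and GAL1- comparisons with GAL1+ cells share the GAL1+ libraries and are not independent.

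**Figure D3:**
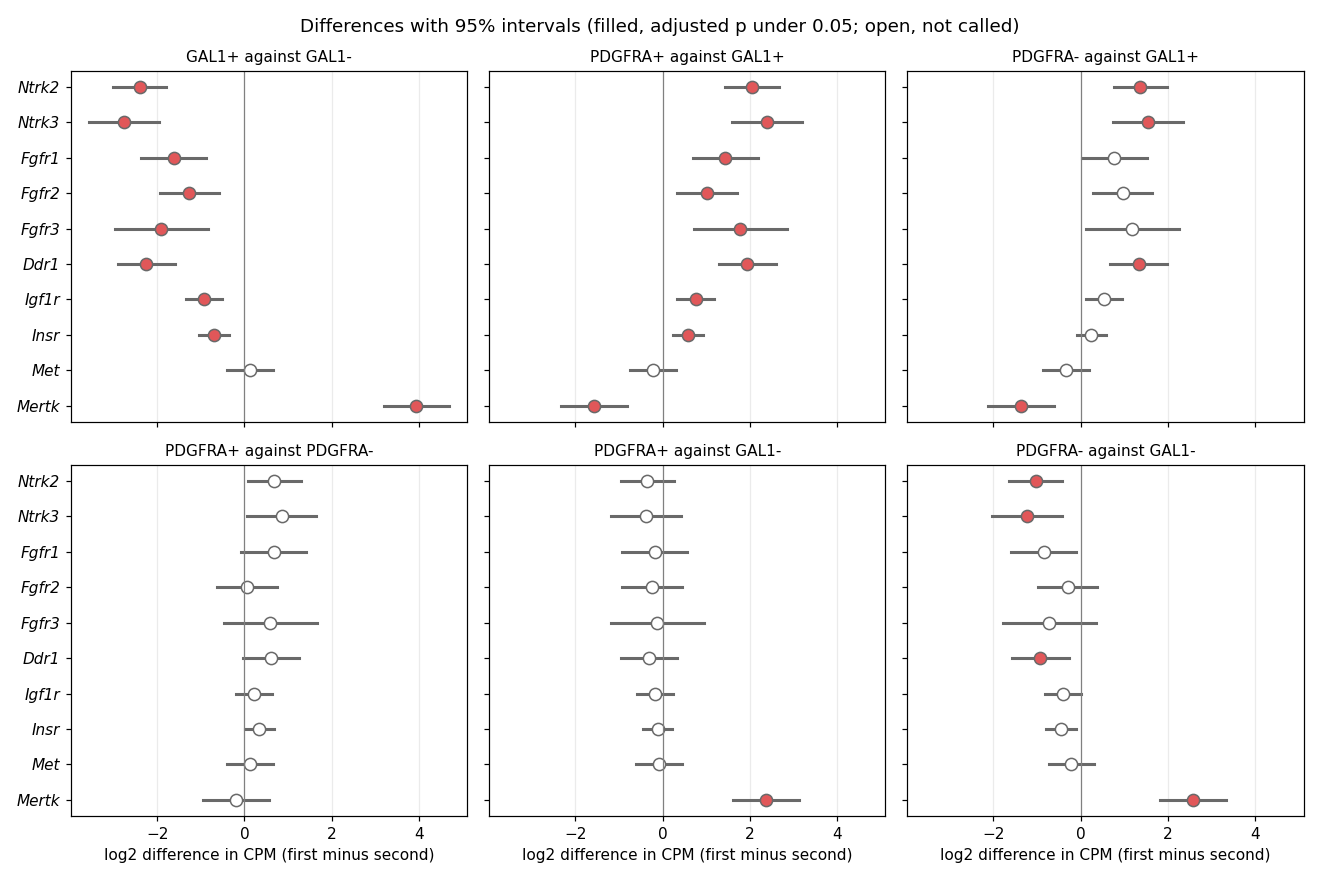
Log2 difference in CPM (horizontal axis, first population minus second) of the 10 receptors in the 6 comparisons, with 95% intervals from the limma fit. Filled points passed an adjusted p under 0.05. All points but Met are filled in GAL1+ against GAL1- and in PDGFRA+ against GAL1+, none in PDGFRA+ against PDGFRA-, and Mertk alone in PDGFRA+ against GAL1-.

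Levels of different genes were compared per kilobase of annotated exon (GENCODE vM21, all exons of a gene merged), since longer transcripts gather more reads. On this log2 CPM per kilobase scale Ddr1 stood highest in GAL1- cells at 5.33 ± 0.13 (SD, n = 3), followed by Ntrk2 at 3.88 ± 0.12, Fgfr1 at 3.50 ± 0.10 and Ntrk3 at 3.19 ± 0.10. Insr (2.94 ± 0.25) and Igf1r (2.90 ± 0.22) did not differ beyond their spread. Mertk followed at 1.80 ± 1.52, and Fgfr3, Met and Fgfr2 closed the order at 0.03 ± 0.59, 0.02 ± 1.05 and -0.27 ± 0.11, within each other's spread. In GAL1+ cells Mertk was the highest at 5.74 ± 0.51 log2 CPM per kilobase and Ddr1 came next at 3.08 ± 0.73. Ntrk2 had dropped to 1.48 ± 0.77, below Insr at 2.24 ± 0.32, and Ntrk3 to 0.42 ± 1.09. Merged exon lengths (4336 bases for Mertk, 4774 for Ddr1, 19292 for Ntrk2 and 30170 for Ntrk3) count exons of rare isoforms too, which lowers the scaled level of the Ntrk genes.

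The family relatives repeated the split within the TAM family. Axl read 8.86, 9.46 and 9.35 log2 CPM in GAL1+ cells and 5.65, 6.69 and 6.82 in GAL1- cells, a rise of 2.83 ± 0.19 on the log2 scale (7.12-fold, limma adjusted p = 3.9e-05). Tyro3, the TAM receptor of neural cells, read 3.08, 2.51 and 2.26 in GAL1+ and 4.35, 4.51 and 4.43 in GAL1- cells, and fell by 1.81 ± 0.22 (limma adjusted p = 0.00013). Fgfrl1, an FGF receptor that lacks the kinase, fell by 2.32 ± 0.28 (limma adjusted p = 0.00013), and the collagen receptor Ddr2 fell by 1.56 ± 0.25 (limma adjusted p = 0.00063). These 4 were the relatives in the table out of 8 listed, where 58.2% of all genes were called. In PDGFRA+ against GAL1+ cells, which share the GAL1+ libraries, Axl was lower by -1.21 ± 0.19, Tyro3 and Ddr2 were higher by 1.43 ± 0.22 and 1.20 ± 0.25, and Fgfrl1 was also called higher (limma adjusted p between 0.0017 and 0.0069), where 38.0% of all genes were called. Axl was also 1.62 ± 0.19 higher in PDGFRA+ than in GAL1- cells (limma adjusted p = 0.0020), as Mertk was.

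Of 32 ligands listed, 13 were in the table, and 8 rose and 3 fell in GAL1+ against GAL1- cells (58.2% of all genes called). The ligand list had a median log2 difference of 1.34, the 10 receptors one of -1.44 and all genes one of -0.03. Igf1 read 5.26, 5.70 and 6.20 log2 CPM in GAL1+ cells and -0.84, 2.03 and 1.68 in GAL1- cells, and rose by 4.76 ± 0.44 on the log2 scale (27.1-fold, limma adjusted p = 4.8e-05) while its receptor Igf1r fell. Hgf read 5.06, 5.01 and 5.83 against 2.31, 0.93 and 3.15 and rose by 3.17 ± 0.38 (8.99-fold, limma adjusted p = 0.00013), with Met not called. Both ligands were also called lower in PDGFRA+ than in GAL1+ cells, Igf1 at -1.77 ± 0.44 and Hgf at -1.54 ± 0.38 (limma adjusted p = 0.013 for each).

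Gas6, which bridges TAM receptors to dying cells, rose by 1.34 ± 0.20 in GAL1+ against GAL1- cells (limma adjusted p = 0.00038). The other TAM ligand, Pros1 (protein S), had a log2 difference of 0.51 ± 0.21 and was not called (limma adjusted p = 0.064). Collagen genes rose as well, Col1a1 by 1.81 ± 0.37, Col1a2 by 1.82 ± 0.50, Col4a1 by 1.17 ± 0.31 and Col4a2 by 1.51 ± 0.35 (limma adjusted p between 0.0026 and 0.011), whereas both collagen receptors fell. For each of these collagen genes the GAL1+ and GAL1- libraries overlapped. Igf2 rose by 1.40 ± 0.52 (limma adjusted p = 0.042) with overlapping groups and a wide spread between tumors, 5.13, 1.85 and 0.58 log2 CPM in GAL1+ cells.

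The ligands that fell were those of the FGF and neurotrophin receptors. Fgf1 read 2.13, 1.95 and 2.31 log2 CPM in GAL1+ and 3.71, 4.37 and 3.69 in GAL1- cells, and fell by 1.79 ± 0.25 on the log2 scale (limma adjusted p = 0.00027). Fgf2 fell by 1.08 ± 0.15 (limma adjusted p = 0.00028), and Bdnf, the ligand of Ntrk2, by 1.63 ± 0.63 (limma adjusted p = 0.047) with overlapping groups. Thus Fgf1, Fgf2, Bdnf and Gas6 moved in the direction of the receptors described here that bind them (Fgfr1 to Fgfr3, Ntrk2, and Mertk with Axl, Tyro3 excepted). Igf1 and Igf2 moved against Igf1r and Insr, and the 4 collagen genes against Ddr1 and Ddr2.

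**Figure D4:**
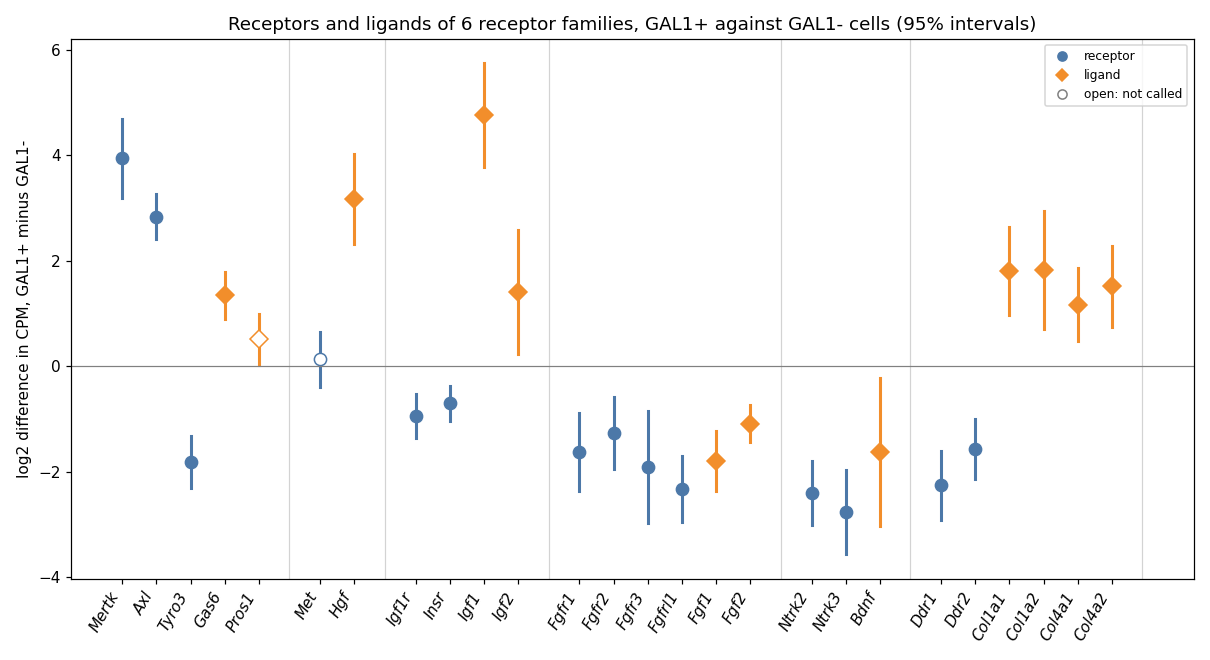
Log2 difference in CPM between GAL1+ and GAL1- cells (vertical axis, GAL1+ minus GAL1-) for receptors (blue circles) and ligands (orange diamonds) of 6 receptor families, with 95% intervals from the limma fit. Open symbols were not called. Igf1 (4.76) and Hgf (3.17) lie far above Igf1r (-0.93) and Met (0.13), the collagen genes lie above and Ddr1 and Ddr2 below 0, and the FGF and neurotrophin families lie below 0 with the ligands plotted.

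Among 17 co-receptors and ligand-binding proteins in the table, 5 rose and 4 fell in GAL1+ against GAL1- cells, a share near that of all genes (58.2% called). Flrt1 and Flrt2, membrane partners of FGF receptors, had log2 differences of -2.51 ± 0.26 and -1.36 ± 0.37 (limma adjusted p = 6.6e-05 and 0.011), and Igfbp2, which holds insulin-like growth factors, one of -2.32 ± 0.44 (limma adjusted p = 0.0015). The heparan sulfate proteoglycan Gpc1, a docking site of FGFs, fell by 1.12 ± 0.33 (limma adjusted p = 0.016). Igfbp7 rose by 1.67 ± 0.29, Cd44 by 1.28 ± 0.12, Sdc4 by 1.05 ± 0.16, Igf2r by 0.81 ± 0.16 and Igfbp5 by 0.81 ± 0.30 (limma adjusted p between 4.9e-05 and 0.042). Values for the 8 that were not called were -1.06 for Igfbp3, -0.84 for Ngfr, -0.31 for Sdc3, -0.12 for Flrt3, -0.06 for Igfbp4, 0.55 for Sort1, 0.70 for Kl and 0.96 for Igfbp6 as log2 differences.

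Of 5 genes of ligand activation and receptor shedding in the table, the 4 proteases rose in GAL1+ against GAL1- cells (28.9% of all genes called higher). Plau (urokinase) rose by 4.85 ± 0.46 and St14 (matriptase) by 4.05 ± 0.43, and the sheddases Adam10 and Adam17 by 1.67 ± 0.15 and 1.67 ± 0.16 (limma adjusted p between 4.3e-05 and 7.0e-05). The remaining gene, the protease inhibitor Spint2, had a log2 difference of -0.03.

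Adaptors and first effectors split in both directions, 7 higher and 11 lower of 25 in the table (28.9% and 29.3% of all genes). Plcg2, the phospholipase C gamma of blood cells, rose by 4.24 ± 0.43, Pik3cd, the leukocyte PI3K catalytic subunit, by 3.26 ± 0.38, and the adaptor Sh2b2 by 2.45 ± 0.37. Shc3, the neural SHC adaptor, fell by 2.35 ± 0.33 (limma adjusted p between 5.9e-05 and 0.00044 for these 4). Irs1, which relays Igf1r and Insr signals, read 4.89, 3.84 and 3.54 log2 CPM in GAL1+ and 6.18, 6.17 and 6.29 in GAL1- cells.

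Negative regulators were called higher for 6 and lower for 9 of 18 (28.9% and 29.3% of all genes). The Sprouty genes Spry1 and Spry2, feedback inhibitors that FGF receptors induce, had log2 differences of -2.08 ± 0.26 and -2.02 ± 0.29 (limma adjusted p = 0.00016 and 0.00034). Spry3 fell by 2.09 ± 0.35 (limma adjusted p = 0.00080) and Grb14, an inhibitor of the insulin receptor kinase, by 1.92 ± 0.28 (limma adjusted p = 0.00035). The 6 that rose were Ptpn1, a phosphatase of the insulin receptor, by 1.64 ± 0.22, Grb10 by 1.44 ± 0.38, Cblb by 1.05 ± 0.20, Sh2b3 by 0.83 ± 0.14, Ptpn2 by 0.57 ± 0.14 and Cbl by 0.53 ± 0.12 (limma adjusted p between 0.00021 and 0.0089).

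Other genes followed individual receptors closely over the 12 libraries, which share tumors and sorts, so these correlations are descriptions. The genes most like Ntrk2 were Slc35f1, Nlgn3 and Arl2bp (Pearson r 0.998, 0.998 and 0.997), and those most like Ddr1 were Pknox2, Syt11 and Slc25a23 (r 0.997, 0.996 and 0.996). Tro, Setbp1 and Add2 stood nearest to Ntrk3 (each r 0.997). Anxa4, Igf1 and Dhrs3 stood nearest to Mertk (r 0.994, 0.991 and 0.988), which places the ligand of Igf1r beside Mertk. For Fgfr1 the list was Cacna1h, Mdga1 and Ptpn5 (r 0.989, 0.988 and 0.986), for Fgfr2 Sytl2, Cadm2 and Fam184a (r 0.974, 0.974 and 0.971) and for Fgfr3 Slc4a10, Disp3 and Sytl2 (r 0.962, 0.959 and 0.958). Igf1r was nearest to Fancm and Fut8 (r 0.985 and 0.980) and Insr to Dgcr8, Magi3 and Iffo2 (r 0.983, 0.978 and 0.974). Met, set by tumor, was nearest to Fkbp5, Eif2s3x and Flrt2 (r 0.940, 0.923 and 0.900), Flrt2 being a partner of FGF receptors.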

How the data were processed

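RNA from sorted cells was made into stranded total RNA libraries from 1 ng and sequenced. The authors trimmed reads with fastp, aligned them to the mouse genome mm39 with STAR in 2 passes and assigned them to exons with featureCounts, counting multi-mapping reads as fractions. Genes were retained by the authors when 3 or more libraries exceeded 1 CPM, libraries were scaled by TMM, and log2 CPM values from voom were deposited. These log2 values were used as deposited. Reads per library were recovered from the voom offset of 0.5, and 41.3 to 59.2% of values came out whole within 0.01 reads.

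Tests used limma 3.58.1 in R 4.3.3 on all 18180 genes and 12 libraries, with population and tumor as terms and a mean-variance trend (6 residual degrees of freedom). Libraries of the same tumor come from 1 animal's tumor and deviated together (mean r 0.486 over 18 pairs, lowest 0.140), so tumor is a pairing block. Fold changes are 2 to the power of the log2 difference. All 10 receptors and every listed ligand or co-receptor in the table were eligible to be named. From each other list up to 4 called genes with the largest GAL1+ against GAL1- difference, with 10 or more reads in each library of a group, were eligible. Irs1, Spint2, the negative regulators that rose and the kinases that fell or were not called in the closing section were named after their values were seen, as were Flt1, Kdr and Epha2. The 3 genes most like a receptor were taken from 10194 genes with a mean log2 CPM of 3 or more, predicted genes left out. An allele of the model, a ligand and a gene near Igf1r are not reported here. Receptors, lists and markers were chosen with earlier results of these data known. The fit was tested on simulated data in which few genes changed, a setting unlike the wide difference between GAL1+ and GAL1- cells. Columns of the table outside the 12 libraries numbered 0. The tests were repeated under 13 alternatives, read only for the 10 receptors and for counts of called genes. Calls of ligands, relatives and other listed genes were not followed through these alternatives. P-values measure how much differences between populations vary from tumor to tumor over 3 tumors. This spread is pooled over the 12 libraries and moderated across genes, and level differences between tumors are taken out.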

Additional observations from a re-analysis of the deposited data

How the results depend on the processing

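Refits of the 10 receptors in the 6 comparisons under 13 alternatives kept the direction and the side of the threshold in 712 cases, kept the direction and lost the call in 49, gained a call in 13 and changed sign in 6. The 6 were differences near 0 that no alternative called. Leaving out a replicate (tumor), or PDGFRA- replicate 5 alone, moved Met between -0.087 and 0.26 in PDGFRA+ against PDGFRA- cells, between -0.20 and 0.31 in GAL1+ against GAL1- cells, between -0.24 and 0.014 in PDGFRA+ against GAL1- cells and between -0.46 and 0.069 in PDGFRA- against GAL1- cells. Fgfr3 moved between -0.25 and 0.012 in PDGFRA+ against GAL1- cells.

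Counts of called genes depended on the tumor pairing. With no replicate block (tumor left out), PDGFRA+ against GAL1+ gave 3154 genes instead of 6900, PDGFRA- against GAL1+ 725 instead of 3652, PDGFRA+ against GAL1- 612 instead of 1504, and PDGFRA- against GAL1- 1444 instead of 4200. Fits on only the 6 libraries compared gave 1893, 3386 and 1328 for the last 3 of these. Leaving out a tumor, or the PDGFRA- library of T5, gave 2110 to 7677, 0 to 5837, 0 to 1886 and 920 to 3287 genes for the 4 comparisons in the same order, the lowest without T3, T4, T3 and T5 and the highest of the first 3 without the PDGFRA- library of T5. The count for GAL1+ against GAL1- stayed within 1.5 times of 10578 under every alternative, and that for PDGFRA+ against PDGFRA- was 0 under all 13. The cause was not tested.

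Without tumor in the model 14 receptor calls were lost, and their values stand in the report. Depth limits Fgfr2, Fgfr3 and Met most, and 3 tumors limit every interval.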

Other observations

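A further 28 receptor tyrosine kinases of the table, out of 35 listed, split in both directions between GAL1+ and GAL1- cells, 7 higher and 13 lower (58.2% of all genes called). Csf1r, the receptor that macrophages and microglia depend on, read 9.94, 10.57 and 10.41 log2 CPM in GAL1+ and 3.79, 5.96 and 4.98 in GAL1- cells, a rise of 5.40 ± 0.51 on the log2 scale (limma adjusted p = 4.9e-05). The endothelial receptors Tek and Flt4 rose by 2.98 ± 0.49 and 2.94 ± 0.31 (limma adjusted p = 0.00070 and 7.0e-05), and Tie1 by 2.80 ± 0.25 (limma adjusted p = 4.5e-05). The endothelial marker sums given in the report moved with them, but Tek, Flt1 and Kdr are themselves among those markers. The sums are therefore partly the same measurement, and the part of endothelial cells was not tested. Flt1, Kdr and Epha2 made up the other calls in this direction.

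The 13 that fell were led by Lmtk3, with a log2 difference of -2.70 ± 0.39 (limma adjusted p = 0.00033), and by Ret, the receptor of GDNF family ligands, with -2.08 ± 0.37 (limma adjusted p = 0.0010). Of the 10 ephrin receptors in the table, Ephb6, Ephb2, Epha4, Ephb3, Ephb1 and Epha5 were called lower in GAL1+ cells, with log2 differences from -1.99 to -1.44, and Epha2 was called higher, with 1.66 ± 0.15. Epha3 (-1.21), Epha7 (0.21) and Ephb4 (0.86) were not called. The list's median log2 difference was -0.90, against -0.03 over all genes.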
